A study of Mus musculus with 4 samples.

Results

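Lung RNA of mice that breathed mainstream cigarette smoke for 2 weeks was compared with lung RNA of mice kept in clean air for the same time. The comparison rests on 2 of the 4 arrays of the study, 1 for each group, and covers every gene that the array annotation ties to a single gene symbol. That gave 30142 genes, of which 18084 were counted because their mean log2 signal over the 4 arrays was above a floor of 5.82, the 40th percentile over all genes. Each gene was read from 1 array feature, the one with the highest mean signal where a gene had several.

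All mice were male C57BL, an inbred laboratory strain, and exposure began at 10 weeks of age for 1 h per day on 5 days per week. The groups of the comparison were clean air for 2 weeks and smoke for 2 weeks, each a pool of lungs from 5 mice aged 12 weeks. Both 4-week groups, 5 mice in clean air and 4 in smoke, aged 14 weeks, are set beside them. The labels name no genotype, allele or agent other than smoke, and no source used here gives the hour at which lungs were taken. A pool averages its mice and each group had 1 pool, so no value has a replicate error, no p-value can be had, and every difference below is a difference between pools. Values are log2 of the deposited linear signal, and a difference is log2 smoke minus log2 clean air at 2 weeks. A gene was counted as higher or lower when the pools differed at least 1.5-fold, which is 0.58 on the log2 scale. Values of 4 pools are given in the order clean air and smoke at 2 weeks, then clean air and smoke at 4 weeks.

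Cigarette smoke carries particles, oxidants and polycyclic aromatic hydrocarbons to the airway and alveolar surface. Alveolar macrophages clear the particles and, in smoke-exposed lungs, are known to load lipid and to release elastase and chemokines, while airway epithelium secretes antimicrobial proteins and mucins. Aromatic hydrocarbons act on the aryl hydrocarbon receptor (AHR), which drives P450 genes, and oxidants act on NRF2, which drives antioxidant genes.

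The arrays were alike in overall level, with median linear signals of 58.8 to 61.7. Lung markers were bright in every pool, with Sftpc (surfactant protein C of alveolar type 2 cells) at 18.85 to 18.97, Scgb1a1 (the secretoglobin of club cells) at 19.63 to 19.69 and Ager (an alveolar type 1 cell marker) at 15.83 to 16.05. Over all genes above the floor the median difference was 0.01, the quartiles were -0.10 and 0.12, and 46.0% lay within 0.1 of 0. Between 541 and 581 features per array exceeded 65535, the top of a 16-bit scan, and the base of the antilog behind the linear values is in no source used here. With base e, every log2 difference below would be multiplied by 0.69.

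After 2 weeks 329 genes (1.82%) were at least 1.5-fold higher and 220 genes (1.22%) at least 1.5-fold lower in the smoke pool. At a 2-fold limit 94 and 42 genes were left, and at 4-fold 18 and 7. The split between directions was sensitive to scaling: with each array centred on its median, 286 genes were higher and 269 lower, so that higher genes made up 51.5% of both directions together instead of 59.9%. The clean air pools of 4 and 2 weeks differed from each other by as much, with 334 genes (1.85%) at least 1.5-fold higher and 406 (2.25%) at least 1.5-fold lower at 4 weeks. The count alone therefore sets the smoke pool no further from its control than the clean air pools lay from each other. Both comparisons use the 2-week clean air pool. The limit itself had no gap around it: Lxn (a carboxypeptidase inhibitor), at 0.59, was the last gene counted as higher, and Depdc1a, at 0.58, was the first left out, while Cdkn1a at -0.59 and Trib1 at -0.58 lay on either side of the lower limit.

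**Figure D1:**
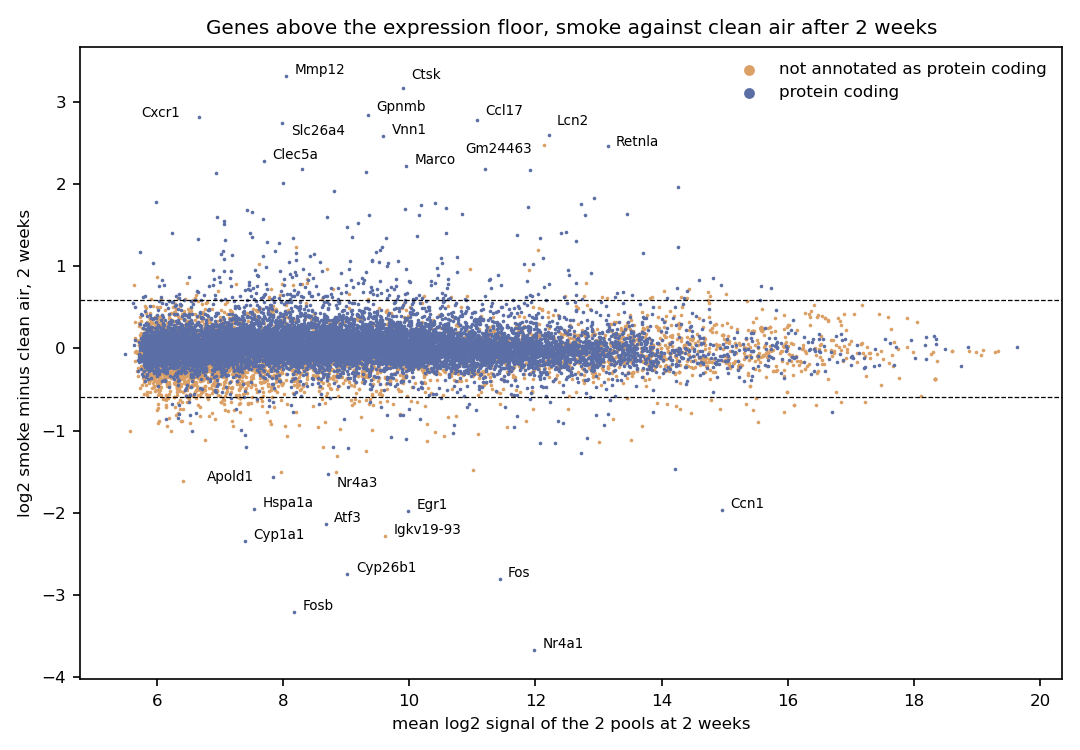
Log2 difference, 2-week smoke minus 2-week clean air (vertical axis), against the mean log2 signal of both pools (horizontal axis), for the 18084 genes above the floor, with protein-coding genes in blue and all others in orange. Dashed lines mark 1.5-fold. The quartiles of the difference are -0.10 and 0.12, with Mmp12 at 3.32 and Nr4a1 at -3.67 as the extremes.

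Against the 2-week clean air pool most protein-coding genes past the limit were higher and most others lower, a split that turned round against the 4-week clean air pool. Of 12583 protein-coding genes 279 (2.22%) were higher and 71 (0.564%) lower. Of the 5501 genes not annotated as protein coding, 50 (0.909%) were higher and 149 (2.71%) lower. Among the protein-coding genes 90 of the 279 differed at least 2-fold and 17 at least 4-fold, and 24 and 6 of the 71.

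The 4-week pools, which share no mouse or array with the 2-week pools, repeated most protein-coding differences and few of the others. At 4 weeks smoke against clean air gave 293 higher (2.33%) and 209 lower (1.66%) protein-coding genes, and 165 higher (3%) and 63 lower (1.15%) others, so that the others were mostly higher there. Both durations shared 192 higher protein-coding genes, 68.8% of the 2-week list and 65.5% of the 4-week list. They shared 53 lower ones, 74.6% of the 2-week list and 25.4% of the longer 4-week list. Of the others they shared 13 higher genes, 26% and 7.88% of the lists, and 8 lower ones, 5.37% and 12.7%.

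Set against the 4-week clean air pool, the 2-week smoke pool gave another balance of directions: 158 higher (1.26%) and 199 lower (1.58%) protein-coding genes, and 236 higher (4.29%) and 49 lower (0.891%) others, so that protein-coding genes were more often lower and the others more often higher. Of the 279 protein-coding genes first counted as higher 135 (48.4%) were still at least 1.5-fold higher, and of the 71 lower ones 58 (81.7%) were still lower. Of the 149 lower genes without a protein-coding annotation 16 (10.7%) were. The protein-coding genes are therefore described first, with all 4 pools, and the others at the end.

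The 15 protein-coding genes with the highest difference were genes of macrophages, granulocytes and secretory epithelium. Mmp12, macrophage elastase, led them, with log2 signals of 6.40, 9.71, 6.19 and 10.87 and a difference of 3.32 (9.96-fold). Ctsk (cathepsin K, a collagen-cleaving lysosomal protease) read 8.32, 11.49, 8.40 and 12.03, a difference of 3.17. Gpnmb, a membrane glycoprotein of lysosome-rich and lipid-laden macrophages, read 7.92, 10.76, 8.28 and 12.00, a difference of 2.84. In these 3 genes the clean air pools differed by 0.35 or less, and the smallest step from a clean air pool to a smoke pool was 2.49, in Gpnmb.

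Chemokine and receptor genes followed. Cxcr1, a chemokine receptor of granulocytes, read 5.27, 8.09, 5.72 and 8.65, a difference of 2.82. Its clean air pools lay below the floor, so that it passed the floor through the smoke pools, and measured from the floor itself the 2-week smoke pool stood 2.27 higher. Ccl17, a ligand of CCR4 made by dendritic cells and macrophages, read 9.68, 12.46, 10.01 and 13.21, a difference of 2.78. Clec5a, a C-type lectin of myeloid cells, read 6.57, 8.85, 6.72 and 9.09, a difference of 2.28. None of these overlapped between smoke and clean air pools, which was so for 306 of the 350 protein-coding genes past the limit in either direction.

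Epithelial and secreted proteins made up much of the rest. Slc26a4 (pendrin, an apical anion exchanger of airway epithelium) read 6.62, 9.36, 6.65 and 10.04, a difference of 2.74. Lcn2, lipocalin 2, which binds bacterial siderophores, read 10.91, 13.51, 11.78 and 13.92, a difference of 2.59. Vnn1, the pantetheinase vanin 1, read 8.29, 10.88, 8.41 and 11.58, a difference of 2.59. For Lcn2 the 4-week clean air pool stood 0.87 above the 2-week one, so that the difference was 1.72 against it. Retnla (a secreted protein of type 2 immune responses) read 11.92, 14.38, 12.47 and 14.78, and Reg3g (an antibacterial lectin of epithelium) read 7.21, 9.39, 8.76 and 8.94. Reg3g, at 2.18, had the widest gap between the clean air pools, 1.55: against the 4-week clean air pool its difference was 0.63, and after 4 weeks of smoke it was 0.18.

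The last leading genes were Marco (a scavenger receptor for particles), at 2.22, Cd68 (a lysosomal glycoprotein of macrophages), at 2.18, Itih4 (an acute-phase plasma protein), at 2.17, and Steap4 (a metalloreductase), at 2.15. All 15 were at least 1.5-fold above the 4-week clean air pool as well, and 14 of the 15 were at least 1.5-fold higher after 4 weeks, the exception being Reg3g.

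**Figure D2:**
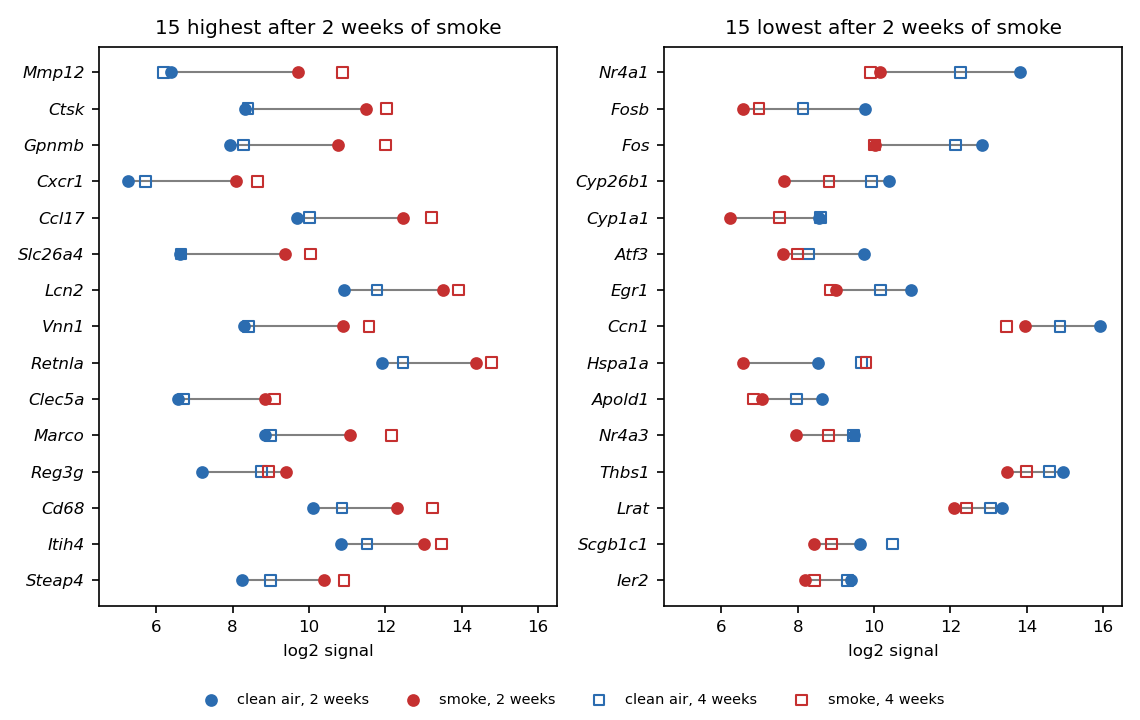
Log2 signal (horizontal axis) of the 15 protein-coding genes with the highest (left) and lowest (right) difference after 2 weeks, in each pool: blue for clean air, red for smoke, filled circles for 2 weeks, joined by a line, and open squares for 4 weeks. Both smoke pools lie above both clean air pools in 15 of 15 genes on the left and below them in 14 of 15 on the right, where Hspa1a is the exception. Of all 350 protein-coding genes past 1.5-fold, 306 have both smoke pools beyond both clean air pools.

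The 15 lowest genes were of another kind, and 8 of them were on the list of immediate early genes, whose transcription follows a stimulus within minutes without new protein synthesis. Nr4a1, an orphan nuclear receptor of this class, read 13.82 in clean air and 10.15 in smoke, then 12.26 and 9.91 at 4 weeks, and its difference of -3.67 was the most negative of all genes. Fosb (an AP-1 subunit) read 9.78, 6.57, 8.13 and 6.98, a difference of -3.20. Fos, also an AP-1 subunit, read 12.84, 10.03, 12.13 and 10.01, a difference of -2.81. The smoke pools lay below both clean air pools in all of these, and for Nr4a1 and Fosb the 2-week clean air pool stood 1.56 and 1.64 above the 4-week one.

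The list of immediate early genes held 34 genes, 32 of them above the floor, and was the one pathway list with a median past the limit on the lower side. Of the 32 genes 16 were at least 1.5-fold lower and 0 higher, against 0.564% lower over all protein-coding genes, and 30 of 32 differences were negative, with a median of -0.61. At 4 weeks the median was -0.67, and 13 of the 16 were lower there too. In all 16 both smoke pools lay below both clean air pools. Of all 350 protein-coding genes past the limit, 306 had both smoke pools beyond both clean air pools on their side. The median of the list differed by -0.01 between the clean air pools, but single members shifted more. Ccn1, Egr1 and Fos differed by -1.06, -0.80 and -0.71 from 2 to 4 weeks in clean air, Nr4a3 and Ier2 by -0.01 and -0.08. Against the 4-week clean air pool 13 of the 16 remained past the limit, with Ccn1 at -0.90 and Egr1 at -1.18. Egr1 and Atf3, inducible transcription factors, differed by -1.98 and -2.14, Ccn1 (a matricellular protein) by -1.96 and Ier2 (a nuclear immediate early protein) by -1.20. Nr4a3 (a nuclear receptor) was lower by 1.53, Nr4a2 by 1.10, Btg2 (an antiproliferative protein) by 0.93, Zfp36 (which destabilises cytokine mRNAs) by 0.88 and Dusp1 (a MAP kinase phosphatase) by 0.77. Dusp1 was among the bright genes and read 17.10, 16.32, 17.02 and 16.33.

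Atf3 also differed between the controls, at 9.74, 7.61, 8.29 and 7.99. Its difference was -2.14 against the 2-week clean air pool, -0.68 against the 4-week one and -0.30 between the 4-week pools. Of the members that did not reach the limit, Jund (an AP-1 subunit) differed by -0.28, Klf2 and Klf6 (zinc finger factors) by -0.45 and -0.43, Myc by -0.02, and Arc by 0.20. Genes outside the list that are known as inducible stood with it: Ptgs2, inducible cyclooxygenase, read 12.13, 11.18, 11.71 and 11.12, and Csrnp1, Sik1 and Adm were lower by 1.06, 0.90 and 1.20. These last genes were picked after their values were seen.

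Promoters of the lower genes were read from a RefSeq table of assembly GRCm38.p6, 250 bases before to 50 bases after each gene start, because these genes were lower together. The CRE core, TGACG, part of the element that CREB and ATF proteins bind, was searched on both strands. The table held 24 of the 32 immediate early genes, 57 of the 71 lower and 220 of the 279 higher protein-coding genes, some with several starts. The core was in 17 of 28 promoters of immediate early genes (60.7%) and in 37 of 75 promoters of the lower protein-coding genes (49.3%). Over all 32851 promoters 20.8% held it, and of the 253 promoters of the higher protein-coding genes 38 did. The lower genes' promoters were also richer in G and C, with a median of 59.3% against 52.7% over all promoters, and held a median of 16 CpG against 7. Those of the immediate early genes had a median of 64.2% and 25 CpG. What part base composition has in the share was not tested. Where a gene had several starts, the stretch printed is from the start with the most sites. The 200 bases before the start are printed 5′ to 3′ in the direction of transcription for 4 of the lower genes, with the core, which reads CGTCA on the opposite strand, in capitals: Nr4a1 at chr15:101266646-101266845 on the plus strand, Fos at chr12:85473690-85473889 on the plus strand, Fosb at chr7:19310046-19310245 on the minus strand and Nr4a3 at chr4:48045105-48045304 on the plus strand.
Nr4a1: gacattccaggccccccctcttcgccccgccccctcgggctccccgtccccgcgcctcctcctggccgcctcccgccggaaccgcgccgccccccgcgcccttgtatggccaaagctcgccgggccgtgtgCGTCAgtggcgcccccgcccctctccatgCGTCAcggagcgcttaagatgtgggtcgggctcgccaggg
Fos: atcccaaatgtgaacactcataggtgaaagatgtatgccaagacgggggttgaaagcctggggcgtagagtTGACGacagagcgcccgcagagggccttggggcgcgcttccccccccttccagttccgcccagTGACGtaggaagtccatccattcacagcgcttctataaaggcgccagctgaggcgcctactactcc
Fosb: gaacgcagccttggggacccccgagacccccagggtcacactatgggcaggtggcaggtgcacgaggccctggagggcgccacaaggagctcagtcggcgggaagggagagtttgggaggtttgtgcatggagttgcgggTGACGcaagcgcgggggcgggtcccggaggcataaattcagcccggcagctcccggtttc
Nr4a3: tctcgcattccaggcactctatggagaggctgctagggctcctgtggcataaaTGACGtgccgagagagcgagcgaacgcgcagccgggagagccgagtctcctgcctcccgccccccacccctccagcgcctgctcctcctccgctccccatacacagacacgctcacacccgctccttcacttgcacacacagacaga
Counted from the gene start, the cores began at -69 and -40 in Nr4a1, -129 and -66 in Fos, -60 in Fosb and -147 in Nr4a3. The full element, TGACGTCA, which contains the core, was in 8% of the lower genes' promoters, 1.58% of the higher genes' and 1.79% of all. CArG boxes, to which serum response factor binds, were in 7 of 28 promoters of the immediate early genes (25%) and 1.63% of all. Those 7 promoters belonged to 4 of the 24 genes. The XRE core, GCGTG, which AHR binds, was in 36% of the lower genes' promoters, 46.4% of the immediate early genes', 25.3% of the higher genes' and 32.4% of all. It was in 8 of 12 promoters of the 15 lowest genes. The CRE core was not alone in being more frequent on the lower side. The antioxidant element core, TGACNNNGC, was in 30.7% of the lower genes' promoters, 16.2% of the higher genes' and 12.4% of all. For the E-box, CACGTG, these shares were 12%, 5.14% and 7.15%.

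The AP-1 site, TGANTCA, bound by FOS and JUN proteins, had a distribution opposite to that of the CRE core. It was in 36 of the 253 promoters of the higher protein-coding genes (14.2%), in 7.81% of all promoters, in 2.67% of those of the lower genes and in 0 of 28 of the immediate early genes. Promoters of 2 of the leading macrophage genes are shown for their AP-1 sites, in capitals, again from the start with the most sites of those listed: Mmp12 at chr9:7347174-7347373 on the plus strand and Cd68 at chr11:69666171-69666370 on the minus strand.
Mmp12: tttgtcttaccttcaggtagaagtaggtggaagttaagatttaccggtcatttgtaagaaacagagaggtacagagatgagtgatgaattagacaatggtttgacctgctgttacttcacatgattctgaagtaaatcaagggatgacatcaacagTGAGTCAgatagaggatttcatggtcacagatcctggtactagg
Cd68: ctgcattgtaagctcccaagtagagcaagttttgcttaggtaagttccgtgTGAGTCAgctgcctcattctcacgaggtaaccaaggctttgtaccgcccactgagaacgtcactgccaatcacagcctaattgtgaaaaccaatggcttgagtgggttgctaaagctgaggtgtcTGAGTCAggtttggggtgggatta
The site began at -44 in Mmp12 and at -149 and -24 in Cd68. A match in these windows is a description of the letters only.

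Beyond the immediate early genes, the lowest genes belonged to retinoid, AHR, heat shock and vascular groups. Cyp26b1, which degrades retinoic acid, read 10.39, 7.65, 9.94 and 8.82, a difference of -2.74. Lrat, which esterifies retinol for storage, read 13.37, 12.09, 13.06 and 12.43, a difference of -1.27. Both were lower after 4 weeks too, by 1.12 and 0.63. They were the 2 of 11 measured retinoid metabolism genes past the limit, the others lying between -0.30 and 0.33, with the receptors Rara at 0.13 and Rarb at -0.09.

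AHR targets went both ways. Cyp1a1, the P450 that AHR ligands induce most strongly, was lower, with 8.56, 6.22, 8.60 and 7.53 and a difference of -2.34. Cyp1b1, also a P450 target of AHR, was higher, with 8.07, 9.12, 8.12 and 9.01 and a difference of 1.05. Between the clean air pools Cyp1a1 differed by 0.04 and Cyp1b1 by 0.05, and the opposite directions held at 4 weeks. The remaining 5 measured members, among them Ahr itself at 0.35, Tiparp at -0.21 and Nqo1 at -0.21, did not reach the limit, and Ahrr and Cyp1a2 lay below the floor.

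Heat shock chaperones had 2 of 16 members lower and 0 higher. All 16 had negative differences at 2 weeks, with a median of -0.30. Hspa1a, the inducible HSP70, read 8.52, 6.57, 9.67 and 9.79, a difference of -1.95, and Hsph1 (an HSP70 nucleotide exchange factor) read 13.55, 12.62, 13.64 and 13.91, a difference of -0.93. The 2-week smoke pool was thus the lowest of the 4 pools for both genes, while at 4 weeks smoke and clean air differed by 0.12 and 0.27 and the list's median was -0.03. The difference between durations was not tested. Genes of the unfolded protein response, which reports stress in the endoplasmic reticulum, had 12 of 13 negative differences and 0 past the limit, with Atf4 at -0.33 and Hspa5 at -0.26.

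Glucocorticoid and fasting response genes had more lower than higher members. Of 16 measured 5 were lower and 2 higher, with a median of -0.39 and 13 of 16 negative. Errfi1, a feedback inhibitor of the EGF receptor, read 13.37, 12.28, 13.18 and 12.32, Pdk4 (which shuts down pyruvate oxidation in fasting) read 10.60, 9.74, 11.30 and 10.16, and Zbtb16 read 11.87, 11.16, 12.39 and 12.59. The higher members were Lcn2 and Mt2, a metallothionein, at 0.92. Mt2 read 12.41, 13.34, 14.40 and 14.43, so that it differed by -1.06 against the 4-week clean air pool and by 0.03 at 4 weeks. The clean air pools of this list lay apart by a median of 0.65, higher at 4 weeks, and against the 4-week clean air pool the list's median was -0.92. Fkbp5, a sensitive glucocorticoid target, differed by -0.02.

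Clock genes went both ways. Arntl (BMAL1, the positive arm of the circadian clock) read 10.25, 9.17, 10.29 and 8.95, a difference of -1.08, and Nfil3 (a repressor of D-box genes) was lower by 0.80 and Per1 by 0.71. Dbp (a D-box activator) read 10.20, 11.32, 10.36 and 11.27, a difference of 1.12, and Bhlhe41, Per3 and Nr1d1 (repressor and period genes of the negative arm) were higher by 0.92, 0.64 and 0.61. Of these 7 of 17 measured genes, 6 had both smoke pools on the same side of both clean air pools, the exception being Per1, while Clock, Cry1 and Cry2 differed by -0.18, 0.09 and 0.09. Over all protein-coding genes past the limit, 306 of 350 had both smoke pools on the same side. Clock genes follow the hour, and their part in the other results was not tested.

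The lowest genes also held Apold1 (an inducible gene of endothelium), which read 8.63, 7.07, 7.97 and 6.84, a difference of -1.56, and Thbs1 (thrombospondin 1, a matrix glycoprotein), which read 14.94, 13.47, 14.60 and 14.00, a difference of -1.47. Cldn5, the claudin of endothelial tight junctions, read 14.25, 13.48, 14.36 and 13.51, a difference of -0.77. Other endothelial genes did not reach the limit: Pecam1, Cdh5, Kdr and Tek differed by -0.14, -0.12, -0.21 and -0.20. Among genes outside the lists, chosen after their values were seen, Pon1 (paraoxonase 1) read 12.65, 11.50, 12.81 and 11.71, and Npr3 (the natriuretic peptide clearance receptor), Bcl6b and S1pr1 (a sphingosine phosphate receptor) were lower by 0.80, 0.82 and 0.63.

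Scgb1c1, a secretoglobin, read 9.64, 8.43, 10.49 and 8.88 and was the lowest epithelial secretory gene, at -1.21. All 15 lowest genes were at least 1.5-fold below the 4-week clean air pool as well, and 13 of 15 were at least 1.5-fold lower after 4 weeks, the exceptions being Atf3 and Hspa1a.

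Turning to the higher side by function, 38 pathway lists were laid over the genes. The lists were drawn up with earlier results of these data known, so their counts are descriptions and are read against the 2.22% and 0.564% of all protein-coding genes. Of the 12583 protein-coding genes 7101 had a positive and 5478 a negative difference. A list is given by the members measured, meaning above the floor.

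**Figure D3:**
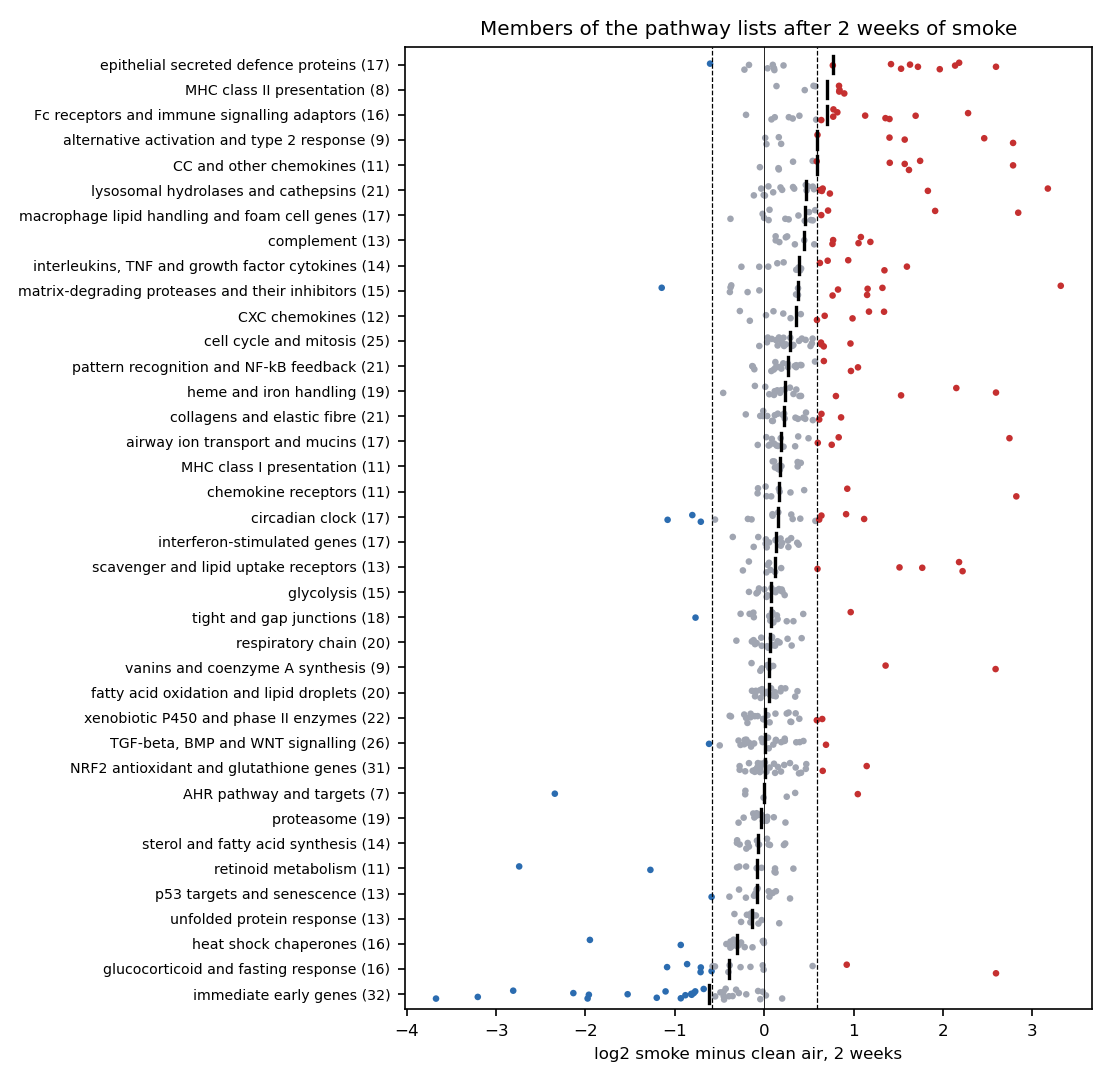
Log2 difference, 2-week smoke minus 2-week clean air (horizontal axis), of every measured member of each pathway list (1 point per gene, number measured in brackets), with red for genes at least 1.5-fold higher, blue for at least 1.5-fold lower, grey for the rest and black bars for the median. Dashed lines mark 1.5-fold. Lists run from a median of 0.77 for epithelial secreted defence proteins to -0.61 for immediate early genes.

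Matrix-degrading proteases and their inhibitors had 6 of 15 members higher and 1 lower. Besides Mmp12, Mmp8 (neutrophil collagenase) read 6.42, 7.74, 7.13 and 7.97, and Mmp2 (gelatinase A) read 11.45, 12.27, 11.58 and 12.54. Serpina3n (a serine protease inhibitor) was higher by 1.16, Adam8 (a leukocyte sheddase) by 1.15 and Timp1 (a metalloproteinase inhibitor) by 0.76. All 6 were also higher after 4 weeks. Against the 4-week clean air pool 3 of the 6 remained past the limit, while Timp1, Serpina3n and Adam8 differed by 0.56, 0.49 and 0.38. Adamts1, a proteoglycanase known to be inducible, was lower, with 12.88, 11.74, 12.71 and 11.50. Mmp9 (gelatinase B) differed by -0.38, Mmp14 by 0.38 and Timp3 by -0.37. The neutrophil proteases Elane, Ctsg and Prtn3 were below the floor in this table.

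Lysosomal hydrolases had 6 of 21 members higher, 0 lower, and 18 of 21 positive differences, with a median of 0.46. Atp6v0d2, a macrophage subunit of the proton pump, read 12.01, 13.84, 12.21 and 14.30, a difference of 1.83. Ctss (cathepsin S), Ctsa, Gla and Ctsz were higher by 0.73, 0.65, 0.64 and 0.62, and Ctsb, Ctsl and Lamp1 differed by 0.46, 0.05 and 0.18. The 6 genes were higher at 4 weeks as well, while 3 of them remained past the limit against the 4-week clean air pool.

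Scavenger receptors had 5 of 13 members higher and 0 lower. Marco read 8.84, 11.06, 8.99 and 12.16, Msr1 (scavenger receptor A) 6.31, 7.82, 6.36 and 8.24, and Olr1 (the oxidised LDL receptor) 9.53, 11.29, 9.70 and 11.62. Both smoke pools stood above both clean air pools in these genes, and their differences at 4 weeks were 3.17, 1.88 and 1.92. Mrc1, the mannose receptor, differed by 0.60. The other lipid uptake receptors did not follow: Cd36, which was bright in all pools, differed by -0.24, Scarb1 by 0.19, Lrp1 by 0.05 and Cd163 by 0.04, so that the list's median was 0.12.

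Macrophage lipid genes had 4 of 17 members higher. Ch25h (cholesterol 25-hydroxylase) read 7.85, 9.76, 7.81 and 10.17, Fabp5 (a fatty acid binding protein) read 9.05, 9.76, 8.97 and 9.80, and Trem2 (a lipid-sensing receptor) read 5.49, 6.13, 5.56 and 6.65. With Gpnmb these were the 4 genes past the limit. Trem2 lay below the floor in both clean air pools and 0.31 above it in the 2-week smoke pool. In all, 7 of the 279 higher protein-coding genes lay below the floor in both clean air pools, among them Cxcr1, Cxcl9 and Trem2 in the lists. Plin2, which coats lipid droplets, differed by 0.24, Abcg1 by 0.45, Abca1 by -0.38 and Apoe by -0.00. Genes of fatty acid oxidation and lipid droplets in general had 0 of 20 past the limit, and sterol and fatty acid synthesis 0 of 14.

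Of the 11 measured CC and other chemokines 6 were higher and 0 lower, with a median of 0.59. Ccl9 and Ccl6, monocyte attractants, read 9.31, 11.06, 9.77 and 11.98, and 11.98, 13.60, 12.16 and 14.06. Ccl22 (a second CCR4 ligand) read 6.90, 8.47, 7.04 and 8.76, and Ccl3 (macrophage inflammatory protein 1 alpha) read 6.77, 8.17, 6.89 and 8.88. Ccl2 lay on the limit at 0.59, and Ccl5, Ccl11 and Ccl19 differed by 0.32, 0.16 and -0.05. All 6 were higher after 4 weeks, where the median of the list was 1.03.

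Of 12 measured CXC chemokines 5 were higher and 0 lower, with a median of 0.35, and 2 of the 5, Cxcl5 and Cxcl9, remained past the limit against the 4-week clean air pool. Cxcl17, a mucosal chemokine, read 11.40, 12.74, 12.17 and 13.22, Cxcl9 (an interferon-inducible T cell attractant), below the floor in both clean air pools, 5.15, 6.32, 5.39 and 6.74, and Cxcl5 (a neutrophil attractant of alveolar epithelium) 7.24, 8.23, 7.42 and 8.36. Measured from the floor itself, the 2-week smoke pool of Cxcl9 stood 0.50 higher, which is short of the limit. Cxcl13, the B cell attractant, was higher by 0.68 and Cxcl16 by 0.59, and against the 4-week clean air pool Cxcl13, Cxcl16 and Cxcl17 differed by 0.13, 0.33 and 0.57. Cxcl1, a main neutrophil attractant, read 5.13, 5.98, 4.95 and 6.39 and had a mean below the floor, so that its 0.85 was not counted, and Cxcl15 (lungkine) differed by 0.02. Among 11 measured chemokine receptors Cxcr1 and Ccr2 (the monocyte receptor, 0.93) were higher, while Cxcr2, the other granulocyte receptor, differed by 0.01 at 2 weeks.

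Cytokines had 5 of 14 measured members higher and 0 lower. Csf2 (GM-CSF, on which alveolar macrophages depend) read 6.16, 7.75, 6.28 and 7.91, Il1rn (the interleukin 1 receptor antagonist) 7.48, 8.83, 8.02 and 9.32, and Il1a 8.15, 9.09, 7.76 and 9.55. Csf1 (a macrophage growth factor) was higher by 0.71 and Il33 (an epithelial alarmin) by 0.62. Il1b differed by -0.26 and Tnf by 0.40, and Il4, Il5, Il6, Il10, Il13, Il17a and Ifng had mean signals below the floor. The GM-CSF receptor gene Csf2ra, outside the list and chosen after its values were seen, read 9.88, 11.28, 10.73 and 11.81.

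Genes of alternative activation and type 2 responses had 5 of 9 measured members higher. These were Retnla, Ccl17, Ccl22, Mrc1 and Clec7a (dectin 1, a receptor for fungal glucans), the last with 11.71, 13.11, 11.58 and 13.47. All 5 were also past the limit after 4 weeks and against the 4-week clean air pool. Arg1 (arginase 1), Clca1 and Itln1 were below the floor, and Il4ra differed by 0.01.

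Fc receptors and immune adaptors had the highest share of the pathway lists, with 9 of 16 higher and 0 lower. Against the 4-week clean air pool 4 of the 16 were past the limit. Fcer1g, the shared signalling chain of Fc receptors, read 9.09, 10.79, 10.53 and 11.48, Clec4n (dectin 2) read 8.41, 9.77, 8.36 and 10.47, and Tyrobp (the DAP12 adaptor) was higher by 1.13 at 2 weeks and 1.38 at 4 weeks. Fcer1g stood 1.44 higher in clean air at 4 weeks than at 2, and its difference against that pool was 0.25. Fcgr3 was higher by 0.82, Pirb by 0.77 and Clec4d by 0.77, and Fcgr1, Fcgr4 and Trem1 differed by 0.27, 0.39 and -0.20.

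Complement had 5 of 13 members higher and all 13 differences positive. C3ar1 (the C3a receptor) read 7.28, 8.47, 7.56 and 9.04, Cfb (factor B) 8.99, 10.05, 9.25 and 11.10, and C1qb 8.87, 9.95, 9.69 and 11.02. C1qa and C1qc were higher by 0.76 and 0.77. C1q genes were also higher in clean air at 4 weeks than at 2, C1qb by 0.82, and 2 of the 5 genes were still past the limit against that pool.

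MHC class II genes had 4 of 8 higher, and all 8 positive, with a median of 0.70. H2-Eb1 read 10.96, 11.86, 11.50 and 12.28, H2-Ab1 14.18, 15.01, 14.54 and 15.32, and Ciita (the master activator of the class II genes) 7.98, 8.82, 8.21 and 8.76. H2-DMb1 (a peptide editor) was higher by 0.84 and H2-Aa differed by 0.57. Between the clean air pools the list's median differed by 0.35, and against the 4-week pool its median was 0.36, with 1 gene past the limit. MHC class I genes had 0 of 11 past the limit, all 11 positive, with B2m at 0.15 and H2-K1 at 0.19. The class I median was 0.17, the same as between the clean air pools, and 0.004 against the 4-week clean air pool.

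Interferon-stimulated genes had 0 of 17 past the limit in either direction, with a median of 0.13. Isg15, Ifit1 and Mx2 differed by 0.02, 0.03 and 0.02, Stat2 by 0.38 and Rsad2 by -0.35. Of interferon-inducible genes outside this list, chosen after their values were seen, Irgm2, Iigp1 and Ifitm3 were higher by 0.85, 0.78 and 0.62. Against the 4-week clean air pool these differed by 0.47, 1.03 and -0.20. Such genes outside the list were not counted as a set. Pattern recognition genes had 3 of 21 higher: Cd14 (the endotoxin co-receptor) at 1.05, Tlr7 at 0.97 and Myd88 at 0.67. Against the 4-week clean air pool Tlr7 remained past the limit, while Cd14 and Myd88 differed by 0.49 and -0.23. Tlr4 differed by 0.12 and the NF-kB feedback genes Nfkbia and Tnfaip3 by -0.13 and 0.27.

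Secreted defence proteins of the epithelium had the highest median of the pathway lists, 0.77, with 9 of 17 higher and 1 lower. Scgb3a1, an airway secretoglobin, read 13.29, 15.25, 14.58 and 15.19, Bpifa1 (the antimicrobial SPLUNC1) read 12.63, 14.26, 14.59 and 14.40, and Bpifb1 read 11.02, 12.74, 12.95 and 12.95. In these 3 genes the 2-week clean air pool was the lowest of the 4 pools by 1.29 or more, and the smoke pools lay within 0.7 of the 4-week clean air pool. Bpifa1 and Bpifb1 differed by -0.18 and -0.001 at 4 weeks, and by -0.33 and -0.21 against the 4-week clean air pool. Scgb3a1 remained past the limit in both comparisons, at 0.61 and 0.67. Ltf (lactoferrin) was alike, with 8.43, 9.96, 9.51 and 9.72.

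Further members of the list, like Scgb3a1, differed at both durations. Saa3 (an acute-phase serum amyloid) read 5.87, 8.01, 6.11 and 9.01, a difference of 2.13, Pigr (the receptor that carries IgA across epithelium) 11.78, 13.20, 11.94 and 14.02, a difference of 1.42, and Sftpd (surfactant protein D, a collectin) 14.56, 15.33, 14.42 and 15.71, a difference of 0.77. S100a9, a calprotectin subunit of neutrophils, was the lower member, at -0.61, and differed by -2.05 at 4 weeks, while its partner S100a8 differed by 0.22 and -1.66. Both were higher in clean air at 4 weeks than at 2, by 1.00 and 1.54. Against the 4-week clean air pool the median of the whole list was 0.14.

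Ion transport and mucin genes had 4 of 17 higher. With Slc26a4 these were Muc4 at 0.83 and Muc1 at 0.75, membrane mucins, and Muc5b, a secreted gel-forming mucin, at 0.60. Muc5b differed by 0.03 against the 4-week clean air pool and by -0.41 at 4 weeks, and Muc1 by 0.28 against that pool. Muc5ac, the secreted mucin of goblet cell metaplasia, read 6.05, 6.40, 6.10 and 6.44, a difference of 0.35. The chloride channel genes Cftr and Ano1 differed by 0.38 and 0.11 and the sodium channel genes Scnn1a, Scnn1b and Scnn1g by 0.14, 0.08 and 0.15.

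Both vanin genes were higher, Vnn1 and Vnn3, the latter with 6.84, 8.20, 6.97 and 8.48. Vanins cleave pantetheine, a breakdown product of coenzyme A. The 7 genes of coenzyme A synthesis beside them, among them Pank1 to Pank4, lay between -0.14 and 0.10.

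Heme and iron genes had 4 of 19 higher: Lcn2, Steap4, Ltf and Cybb (the NADPH oxidase subunit gp91phox, 0.80). Hmox1, heme oxygenase 1, differed by 0.29, the ferritin genes Fth1 and Ftl1 by 0.11 and 0.41, and Tfrc by 0.01. Alas2, the erythroid heme synthase, differed by -0.46.

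Antioxidant genes driven by NRF2 had 2 of 31 higher, 0 lower and a median of 0.01, the same as over all genes. Slc7a11 (the cystine importer) read 6.45, 7.60, 6.46 and 7.86, a difference of 1.15, and Akr1b8 (an aldo-keto reductase) was higher by 0.65. Classical targets stood near 0 or below, with Nqo1 at -0.21, Srxn1 at -0.13, Txnrd1 at -0.10 and Gpx2 at -0.28, and Gclc at 0.35. Of 22 measured xenobiotic enzymes 2 were higher, Gsto1 at 0.65 and Cyp2e1 at 0.59, and the major lung enzymes Cyp2b10, Cyp2f2, Aldh1a1 and Fmo2 differed by -0.11, -0.01, -0.20 and -0.19. Against the 4-week clean air pool Akr1b8, Gsto1 and Cyp2e1 differed by 0.22, 0.15 and -0.52, while Slc7a11 remained past the limit. At 4 weeks Gsto1 and Cyp2e1 differed by 0.37 and -0.83.

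Cell cycle genes had 24 of 25 positive differences, 4 of them past the limit. Mki67 (the proliferation antigen Ki-67) read 9.47, 10.44, 9.17 and 10.75, and Top2a, Kif11 and Tpx2, genes of chromosome segregation, were higher by 0.67, 0.64 and 0.63. The median was 0.29 at 2 weeks and 0.57 at 4 weeks, and -0.00 between the clean air pools. Cdk1 and Mcm5 differed by 0.15 and 0.04. Of p53 and senescence genes 1 of 13 reached the limit: Cdkn1a, the inhibitor p21, which read 13.17, 12.58, 14.24 and 13.44.

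Collagen and elastic fibre genes had 3 of 21 higher, Mfap4 at 0.86, Col3a1 at 0.64 and Mfap5 at 0.61, with Col1a1 at 0.54 and Eln at 0.44. Mfap4 read 14.38, 15.24, 15.21 and 15.54, and Mfap5 9.89, 10.50, 10.59 and 10.96, so that in both the 2-week clean air pool stood below the other 3. Against the 4-week clean air pool Mfap4, Mfap5 and Col3a1 differed by 0.03, -0.08 and 0.83. At 4 weeks they differed by 0.33, 0.37 and 0.79, so that Col3a1 alone was past the limit in both comparisons. TGF-beta, BMP and WNT genes had 1 higher and 1 lower of 26, Id2 at 0.69 and Id1 at -0.62, and junction genes 1 and 1 of 18, Cldn1 at 0.97 and Cldn5.

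Basic metabolism was level. No gene of glycolysis (15 measured), the respiratory chain (20) or the proteasome (19) reached the limit, and their medians were 0.08, 0.06 and -0.03, with a widest difference of 0.42 in Uqcrc1.

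Of the 279 higher protein-coding genes 173 were in no list, and these include further immune receptor genes, named after their values were seen. Lilrb4a and Lilr4b (inhibitory leukocyte receptors) were higher by 1.76 and 1.63, Cd177 (a neutrophil surface protein) by 1.55, Itgb2 (the leukocyte integrin chain CD18) by 1.38 and Havcr2 (the checkpoint receptor TIM-3) by 1.07. Itgb2 read 11.01, 12.39, 11.45 and 12.98. Wfdc17, a secreted protein of macrophages, was higher by 2.01 at 2 weeks and 2.81 at 4 weeks, and Pglyrp1 (a peptidoglycan recognition protein) by 1.29 and 0.77. Mcoln3 (a lysosomal cation channel) was higher by 1.63 and Slc39a2 (a zinc importer) by 1.67, and Olfr111, an odorant receptor gene below the floor in both clean air pools, read 5.10, 6.88, 5.27 and 7.30. Of gene families, C-type lectins had 5 of 24 higher (20.8%) and integrins 3 of 28 (10.7%), with 0 lower, against 2.22% and 0.564% of protein-coding genes. Against the 4-week clean air pool 3 of the 5 lectins and all 3 integrins remained past the limit. Solute carriers, with 8 of 238 higher (3.36%) and 3 lower (1.26%), lay near the protein-coding shares. Odorant receptors had 3 higher and 2 lower of 49, and cytochromes P450 3 and 2 of 36. Of 38 cytosolic ribosomal protein genes 0 were past the limit.

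Markers of 21 cell types were then read. In whole lung a higher marker can come from more cells of a type or from more RNA per cell, and fewer cells of a type and less RNA per cell cannot be told apart either.

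**Figure D4:**
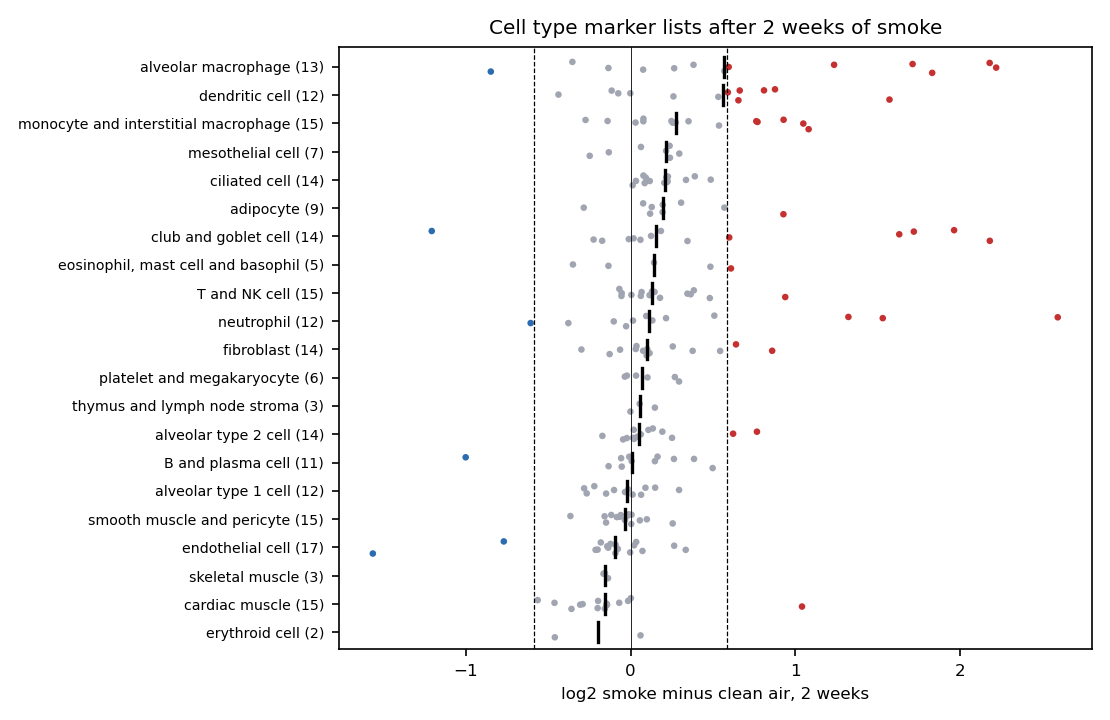
Log2 difference, 2-week smoke minus 2-week clean air (horizontal axis), of every measured member of the cell type marker lists, drawn as in the plot of pathway lists. Alveolar macrophage (median 0.57) and dendritic cell (0.56) markers lie highest, and the alveolar type 1, smooth muscle and ciliated cell lists have no member past 1.5-fold.

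Alveolar macrophage markers had 6 of 13 higher and 1 lower. Itgax (the integrin CD11c) read 9.72, 11.43, 10.16 and 12.31 and Plet1 read 13.64, 14.88, 13.95 and 15.18, with Marco, Cd68, Atp6v0d2 and Mrc1 as the other higher members. Siglecf, the lectin by which these cells are gated, read 8.22, 8.09, 8.48 and 8.61, a difference of -0.13, Car4 differed by 0.26, and Fabp1 was lower, with 6.75, 5.91, 6.73 and 5.84. The markers that define the cell type were therefore not all higher together.

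Dendritic cell markers had 6 of 12 higher and 0 lower, and monocyte and interstitial macrophage markers 5 of 15, namely Ccr2, Cd14 and the 3 C1q genes. Fscn1 (the actin bundler of mature dendritic cells) was higher by 0.88, Itgae (CD103) by 0.81 and Clec9a by 0.66, and Siglech (of plasmacytoid cells) and Ccr7 differed by -0.44 and -0.07. Adgre1 (F4/80) differed by 0.54, Csf1r by 0.26, Cx3cr1 by 0.08 and Ly6c2 by 0.25. Against the 4-week clean air pool 2 of the 6 dendritic and 1 of the 5 monocyte markers were past the limit.

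Neutrophil markers were split, with 3 of 12 higher and 1, S100a9, lower. Lcn2, Ltf and Mmp8, which epithelium or macrophages can also express, were higher, whereas Csf3r read 8.38, 8.51, 9.44 and 8.16, Retnlg 9.79, 9.77, 10.14 and 9.24, and Ly6g 6.33, 6.23, 6.63 and 6.59. The list's median was 0.11 at 2 weeks and -0.87 at 4 weeks, and it differed by 0.86 between the clean air pools, so that the 4-week clean air pool was the highest for most of these genes. Mpo, Elane, Ngp and Camp were below the floor.

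Lymphocyte markers stood near 0. Of 15 T and NK cell markers Cd3e was the 1 past the limit, with 7.48, 8.42, 8.36 and 8.66, while Cd3d and Cd3g differed by 0.07 and -0.07. Of 11 B and plasma cell markers Jchain (the joining chain of secreted IgA and IgM) was lower, with 7.06, 6.06, 5.87 and 6.26, where the 2-week clean air pool was the one that stood apart. Ms4a1 and Ighm differed by -0.06 and -0.01.

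Markers of structural cells lay near 0. Alveolar type 1 (12 markers), smooth muscle (15) and ciliated cell (14) lists had 0 past the limit, the ciliated genes all 14 positive with a median of 0.21. Against the 4-week clean air pool the ciliated median was 0.06. Alveolar type 2 markers had 2 of 14, Sftpd and Il33, while Sftpc, Sftpb and Abca3 differed by 0.01, 0.04 and 0.06. Club and goblet cell markers had 5 of 14 higher and 1 lower, all of them secreted products, while Scgb1a1 and Cyp2f2 differed by 0.02 and -0.01. Endothelial markers had 2 of 17 lower, Apold1 and Cldn5, and fibroblast markers 2 of 14 higher, Col3a1 and Mfap4. Of the 5 markers of eosinophils, mast cells and basophils above the floor, Ear6 was higher, by 0.61.

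Tissue that can come along with lung varied between pools. Of 15 cardiac muscle markers Nppa (atrial natriuretic peptide, of atria and pulmonary veins) was higher, with 9.15, 10.19, 11.39 and 9.77, whereas 13 of the 15 were negative, with Myh6 at -0.56. Of 9 adipocyte markers Car3 was higher, with 10.30, 11.22, 11.63 and 10.63, and Adipoq differed by 0.31. In both genes the highest pool was clean air at 4 weeks. Skeletal muscle, erythroid, platelet, mesothelial and thymus or lymph node lists had 0 past the limit. The part of such tissue in the other results was not tested.

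Genes without a protein-coding annotation behaved otherwise, and for most of them the difference did not hold against the 4-week clean air pool. Of these 5501 genes 4189 were not matched to the RefSeq table and have no biotype here. The highest were Gm24463, a predicted gene, with 10.90, 13.38, 13.86 and 13.88, then AU040972 at 1.23, the pseudogene Gm2573 at 1.20, Gm26287 at 1.02 and Traj14 (a T cell receptor joining segment) at 0.97. The lowest were Igkv19-93 (an immunoglobulin light chain variable segment), with 10.77, 8.48, 8.30 and 8.42, Ighv1-67 at -1.61, Ighv1-18 at -1.50, Igh-VS107 at -1.50 and Gm23442 with 11.74, 10.27, 8.96 and 9.34. Of these 10 genes 1 was past the limit the same way against the 4-week clean air pool, AU040972, with 7.60, 8.83, 7.84 and 9.08.

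**Figure D5:**
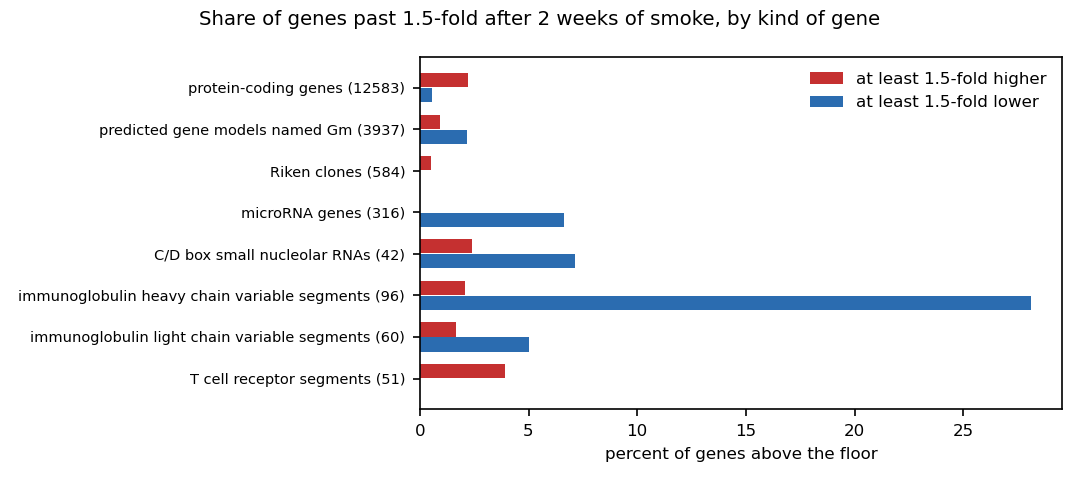
Percent of genes above the floor (horizontal axis) that were at least 1.5-fold higher (red) or lower (blue) after 2 weeks of smoke, by kind of gene, with the number of genes in brackets. Of the kinds shown, immunoglobulin heavy chain variable segments have the largest lower share, 28.1%. The lower share is 2.71% over all genes not annotated as protein coding and 0.564% over protein-coding genes.

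Immunoglobulin heavy chain variable segments, which encode the antigen-binding part of antibodies and are expressed by B and plasma cells, had 27 of 96 lower (28.1%) and 2 higher. Over all genes not annotated as protein coding 2.71% were lower and 0.909% higher. The median segment read 7.50, 7.13, 7.20 and 7.05. Ighv1-2, the brightest of the lower ones, read 14.86, 14.07, 13.89 and 13.83, and Ighv10-1 read 9.93, 8.69, 8.62 and 8.53. Against the 4-week clean air pool 1 of the 27 was past the limit, and 2 of the 27 were lower at 4 weeks. The median difference between the clean air pools was -0.31 and that of smoke at 2 weeks was -0.33, both set against the same 2-week clean air pool. Light chain segments had 3 of 60 lower (5%), and T cell receptor segments 2 of 51 higher (3.92%). Some segments of this kind are close in sequence, so a feature may hold signal of several, which was not tested. The 96 heavy chain segments held 95 distinct sets of values.

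MicroRNA genes had 21 of 316 lower (6.65%) and 0 higher, against 2.71% lower and 0.909% higher over genes not annotated as protein coding. The 316 genes held 295 distinct sets of values. Whether these features read mature, precursor or primary transcripts is not stated in the labels. Of the 21, 5 read Mir466b copies with the same 4 values, 7.61, 7.01, 6.67 and 7.22, and 14 of the 21 had a positive difference at 4 weeks. Those lower at both durations were Mir27a, with 9.87, 9.22, 9.85 and 9.09, and Mir421, with 6.64, 5.93, 6.83 and 6.04. In both, the clean air pools lay within 0.2 of each other, and the smoke pools lay below both. Their mature sequences, from RefSeq (GRCm38.p6), are given 5′ to 3′ with the seed, bases 2 to 8, in capitals, for the arms the table holds: miR-27a at chr8:84208685-84208706 and chr8:84208727-84208747 on the plus strand and miR-421 at chrX:103572966-103572986 on the minus strand.
mmu-miR-27a-5p: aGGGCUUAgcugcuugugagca
mmu-miR-27a-3p: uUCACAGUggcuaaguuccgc
mmu-miR-421-5p: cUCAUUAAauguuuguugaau
The 3 arms have 3 distinct seeds, so no seed was shared. Of the 21 lower microRNA genes 13 were found in the RefSeq microRNA table.

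C/D box small nucleolar RNAs, which guide methylation of ribosomal RNA, had 3 of 42 lower (7.14%) and 1 higher (2.38%), with Snord45b at 9.90, 8.91, 8.19 and 8.61. Predicted gene models named Gm had 36 higher (0.914%) and 86 lower (2.18%) of 3937. These shares lay near the 0.909% and 2.71% of all genes not annotated as protein coding. Against the 4-week clean air pool 6 of the 36 and 8 of the 86 were past the limit. Long non-coding RNA genes, at 5 higher and 1 lower of 584, lay below the shares of all genes.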

How the data were processed

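Each of the 4 lung pools was read on 1 array. Per the labels' protocols RNA was prepared with the RNeasy Mini Kit and labelled with GeneChip WT PLUS reagents, and per the submitters' processing notes the authors made the deposited intensities with Affymetrix Expression Console 1.4.1 by RMA. Those intensities were linear, already background-corrected, summarised and normalized over the 4 arrays, and log2 was taken of them here with no offset and no further scaling. RMA gives logs of base 2, but the deposited values were linear, and the base of the antilog behind them is in no source used here.

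Of 65956 features, 30604 had 1 gene symbol in the platform annotation, 2146 had several and 33206 were not listed. Symbols were updated through Entrez IDs with the RefSeq annotation of GRCm38.p6, which held 22818 of these features and changed 827 symbols. The feature with the highest mean was kept for each gene, in 355 genes out of several, and a gene had to reach the 40th percentile of mean log2 signal. A gene was counted as different at 1.5-fold. Among the genes above the floor, 301 share all 4 values with another gene, 12 of them among those counted as different.

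The genes named were the 15 protein-coding genes with the largest difference in each direction, the 5 other genes in each direction, and members of the gene lists past the limit or defining for their list, and any gene outside these is said in the text to be so. The members and lists were chosen with earlier results of these data known. With 1 array in a group there is no test, no error and no p-value, and the 4 pools limit the precision. The difference between the clean air pools, whose robust SD over genes was 0.20, is given as the scale. Alternatives were other floors, centring, cyclic loess, the mean of a gene's features, the 4-week clean air pool or the mean of both as the control, protein-coding genes only, an offset, a 2-fold limit and, added after seeing the data, values made with base e. Calculations used Python 3.11.15, numpy 2.4.6, pandas 2.3.3, R 4.3.3 and limma 3.58.1, and the counting was tested on simulated data.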

Additional observations from a re-analysis of the deposited data

Results flagged for a closer look

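Some genes were at least 1.5-fold from clean air at both durations, in opposite directions. The difference between durations was not tested, since each duration has 1 pool of each kind. Among the leading genes and list members these were Nppa, Car3 and Cyp2e1. Nppa (atrial natriuretic peptide) was higher by 1.04 after 2 weeks and differed by -1.62 after 4 weeks, with 9.15 and 10.19 in the 2-week pools of clean air and smoke and 11.39 and 9.77 in the 4-week pools. Car3 (carbonic anhydrase 3, abundant in fat and muscle) was higher by 0.93 and differed by -1.004, from 10.30 and 11.22 at 2 weeks and 11.63 and 10.63 at 4 weeks. Cyp2e1, a cytochrome P450 of solvent metabolism, was higher by 0.59 and differed by -0.83, from 9.64 and 10.23 at 2 weeks and 10.76 and 9.93 at 4 weeks. In all 3 genes the 4-week clean air pool was the highest of the 4 and the 2-week clean air pool the lowest.

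Over all genes above the floor, 15 were at least 1.5-fold different in opposite directions at the 2 durations, and 4 of them are protein coding. The fourth is Tst (thiosulfate sulfurtransferase), which read 8.05 and 8.91 at 2 weeks and 10.13 and 9.11 at 4 weeks, differences of 0.86 and -1.03, and was chosen after its values were seen. The other 11 have no protein-coding annotation and include Mir378c, with -0.76 at 2 weeks and 1.11 at 4 weeks.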

How the results depend on the processing

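Of the 329 higher and 220 lower genes, a 2-fold limit left 94 and 42, values made with base e would leave 133 and 77, and protein-coding genes alone gave 279 and 71. With the floor at the 60th percentile 138 genes were lower, and with the mean of both clean air pools as the control 140 were. The 4-week clean air pool as the control gave 394 and 248, of which 145 and 74 were also counted against the 2-week pool. With it 35 of the 350 protein-coding genes counted as different changed sign, 11 of them list members and 4 past the limit the other way, Nppa (-1.20), Mt2 (-1.06), Tst (-1.23) and Higd2a (-0.82), and 14 of 59 list medians changed sign, among them neutrophil (0.11 to -0.55) and mesothelial (0.22 to -0.41). Among the 10 named genes without a protein-coding annotation these did: Gm24463 (-0.48), Gm2573 (-0.52), Igkv19-93 (0.18), Ighv1-18 (0.038) and Gm23442 (1.31). Among 99 values, the 59 list medians and the differences of the 40 leading genes, centring, cyclic loess and the mean of a gene's features moved none beyond the spread of 0.20, the mean of both controls moved 32 and the 4-week control moved 45 besides these. No paired analysis was possible because each group holds 1 pool. Leaving out a replicate was not possible for the same reason. The cause of these shifts was not tested. Signal near the floor limits the low genes.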

Other observations

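Features not listed in the annotation were lower more often than higher. Of the 33206 features not listed in the annotation, 14407 were above the floor, and 194 of these were at least 1.5-fold higher and 356 lower after 2 weeks of smoke, which is 1.35% and 2.47%. Their differences ran from -2.42 to 4.65. Of the 2146 features with several symbols, 1343 were above the floor, with 27 higher and 13 lower.

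In 118 protein-coding genes with 2 or more features above the floor, the median gap between the differences of the features was 0.10 and the 90th percentile 0.28. Among these, 4 genes were 1.5-fold different, and in all 4 another feature lay on the same side of 0, in 1 of them also past 1.5-fold, while the other 3 lost the call on it, for example Cd99, chosen after its values were seen, at 0.66 and 0.09.

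Calls were spread over the signal range. With the genes above the floor split by mean signal into 4 bins of equal size, from dimmest to brightest, 36, 97, 89 and 107 genes were higher and 57, 59, 45 and 59 were lower.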
